A study of Mus musculus with 8 samples.

Results

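The genes described here encode the lysosome: its hydrolases, the proteins of its membrane, the pump that acidifies it, and the factors that switch its genes on. They were chosen by name, as 50 gene symbols, and 47 of them had a transcript cluster carrying that symbol alone, out of 14860 genes measured in this way. Atp6v0c, Atp6v1f and Atp6v1g1 had no such cluster and were not analysed here. Each gene was represented by 1 transcript cluster, the one with the highest mean over all arrays. The mRNAs were measured in B16F0, a mouse melanoma cell line that makes pigment, and in the exosomes these cells released, tiny membrane-bound particles holding RNA and protein. Cells of the first group were kept for 24 h in medium without serum. The exosomes of the second group were collected from serum-free medium in which B16F0 cells had been kept for the same time, so both groups share the line and the serum withdrawal. Each group had 4 samples with 1 exon array each, and the labels name neither a genetic change nor an added agent. In bulk RNA, fewer vesicles or cells holding a transcript and less of it in each cannot be told apart.

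Lysosomes break down proteins, glycans, lipids and nucleic acids with hydrolases that work best at acid pH. The acid is made by the vacuolar proton pump, in which a V1 sector in the cytosol splits ATP and a V0 sector in the membrane moves protons. TFEB, TFE3 and MITF belong to one family of transcription factors and switch on many lysosomal genes through a short promoter motif. Pigment cells make melanin in melanosomes, organelles related to lysosomes.

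Values are deposited log2 levels, so a difference of 1 is a change of 2-fold. The 75th percentile of all levels was lower on the exosome arrays (7.06 to 7.19, against 8.46 to 8.60 on the cell arrays). The median of 843 rows of chemosensory receptor genes, which stood in for background, was higher on them (4.11 to 4.27 against 3.56 to 3.69). The 95th percentile of these rows served as threshold, at 5.74 ± 0.03 on cell arrays and 6.49 ± 0.06 on exosome arrays (mean ± SD over 4 arrays each). Genes over it on every array of a group are called above background there. Of 9 pigment cell markers 8 were measured, and all 8 were above background in both groups. Of 9 measured macrophage and leukocyte markers, whose cells are rich in lysosomes, only Cd68 and Fcer1g were above background in cells and none in exosomes. The summed level of these 9 markers was 8.40 to 8.55 in cells and 8.21 to 8.47 in exosomes, with Ptprc, Csf1r, Adgre1 and Itgam below the threshold on every array.

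Most mRNAs of the lysosome were lower in exosomes than in their parent cells, but by very different amounts. Of the 47 genes 44 fell, 1 rose and 2 were not called at a limma adjusted p below 0.05. Among all 14860 genes 52.1% fell and 14.6% rose, and among the 9168 genes above background in cells 79.9% fell and 7.29% rose. Over all 23332 transcript clusters, unnamed ones included, 42.9% fell and 16.4% rose. The median log2 fold change was -2.16 for the lysosomal genes, beside -0.39 for all genes and -1.30 for genes above background in cells. It was -2.04 with the 6 genes above background in cells but on no exosome array set at their bound. The bound is the cell mean against the exosome threshold. For Ctsf, 1 of the 6, the cell mean of 6.29 lay below that threshold, so its fall has no bound. Atp6ap2, an accessory subunit of the proton pump, had the most negative fitted value, -4.01 ± 0.11 (SE, with n = 4 in each group), and Atp6v1c1, a V1 subunit of the same pump, had the smallest change as deposited among genes above background, at 0.11 ± 0.07. A fall of at least 2-fold was called for 39 of the 47, for 37.8% of all genes and for 60.3% of genes above background in cells. The fitted fall was at least 8-fold as deposited for 15 of the 47 genes and for 4.90% of the genes above background in cells. The lysosomal genes were not matched to these for level. Their median was 10.81 to 10.90 on cell arrays, where the 75th percentile of all levels was 8.46 to 8.60. Dim genes have less room to fall before they reach the threshold. With Gla and Manba at their bounds, the count of such falls among the lysosomal genes was 13. Values for the larger sets of genes are all as fitted, although 30.5% of the genes above background in cells were so on no exosome array. The cell and exosome values of the 44 genes that fell did not overlap, as for 52.1% of all genes and 80.0% of genes above background in cells.

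How many of these genes fell depended on how the arrays were scaled to each other. The deposited values gave 44 falls, quantile normalization 38, cyclic loess 35, and centring each array on its background genes 46. The shares of all genes that fell were 52.1%, 33.4%, 32.8% and 82.4% in that order. The count of rises was 1, 5, 5 and 0, beside 14.6%, 30.1%, 31.0% and 2.45% of all genes. Across the 47 genes the median change on the log2 scale was -2.16, -1.09, -0.88 and -2.75 in that order, beside -0.20, 0.05, 0.03 and -0.79 for all transcript clusters. For genes above background in cells the median was -1.30, -0.27, -0.15 and -1.90. The most negative change among the 47 genes was -4.01, -2.98, -2.69 and -4.60. After quantile normalization and cyclic loess, none of the 47 thus fell by 8-fold or more. The share of other genes with such falls was not counted for these scalings. A core of 35 genes fell under each of the 4 scalings, as did 30.9% of all genes and 46.3% of genes above background in cells. The others were Ctsf, Ctsk, Ctss, Gusb, Ids, Tfeb, Mcoln1, Lipa, Arsb, Atp6v0b, Atp6v1b2 and Atp6v1c1. Below, a single gene said to have fallen without a remark on scaling did so under each of the 4. Counts, folds and bounds are those of the deposited values, and the bounds may not hold under other scalings. The counts by role stand beside 52.1% of all genes and 79.9% of genes above background in cells that fell as deposited. The shares of cathepsins (77.8%) and of the V1 sector of the pump (83.3%) were near the latter.

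**Figure D1:**
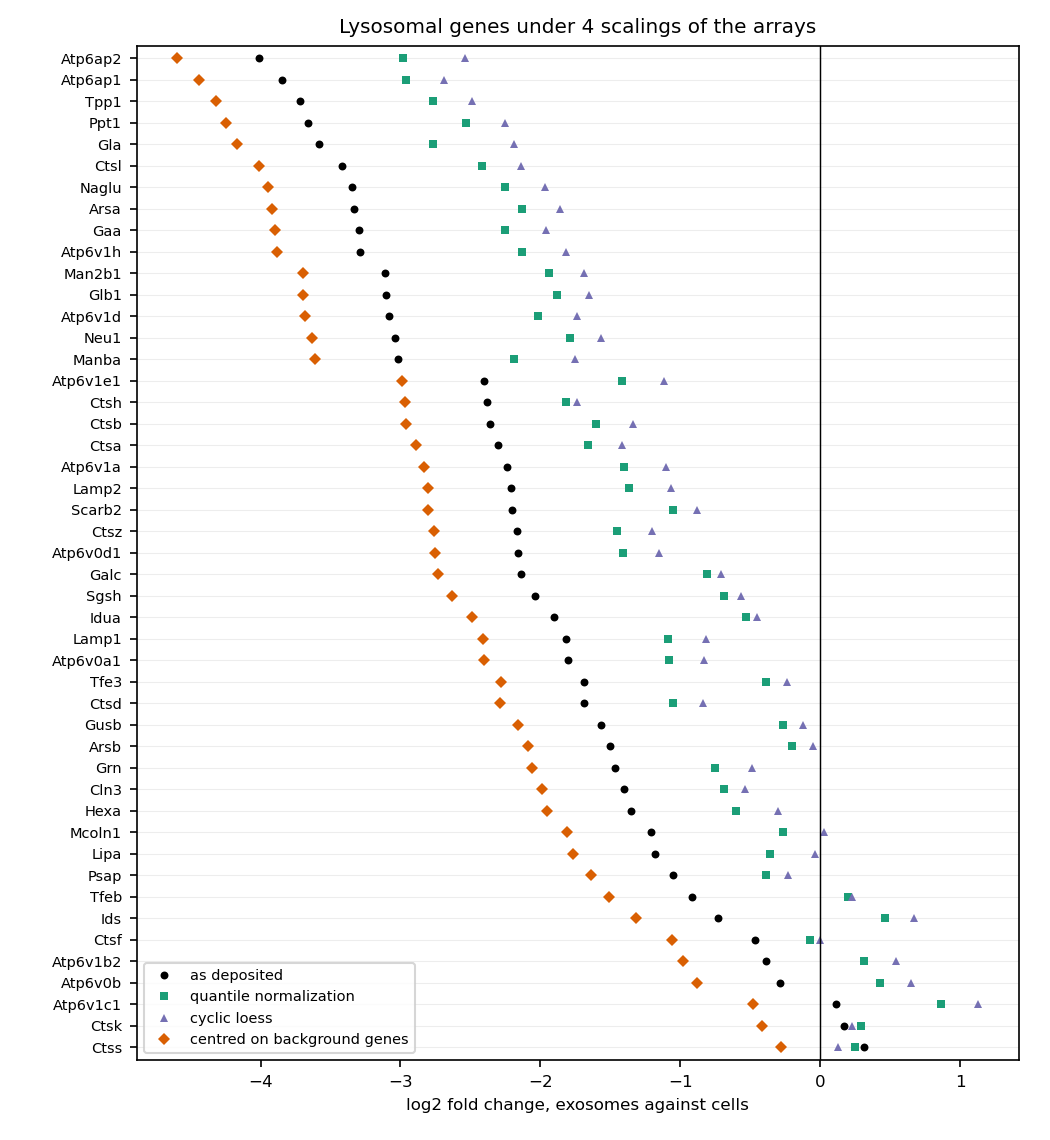
Log2 fold change (x axis) of each of the 47 lysosomal genes (y axis, ordered by the deposited values), with 1 point for each of 4 scalings of the arrays. Cyclic loess moved most genes to the right, with a median of -0.88, and centring on background genes moved them to the left, with a median of -2.75, while Atp6ap2 and Atp6ap1 stayed at the left end.

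Set against genes of like level in cells, the lysosomal genes spread to both sides. Genes with a cell level from 10 to 11, from 11 to 12 and from 12 to 13 all had a median log2 fold change of -1.68. In steps of 1 on the log2 scale, 32 of 47 lysosomal genes lay below the median of all genes in their step and 20 lay below its lowest quartile. Minus its step's median, the log2 fold change was -2.33 for Atp6ap2, -2.17 for Atp6ap1 and -2.05 for Tpp1. It was 1.79 for Atp6v1c1, 1.39 for Atp6v0b, 1.29 for Atp6v1b2 and 1.02 for Ids. These are descriptions of the genes on these arrays and carry no test.

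**Figure D2:**
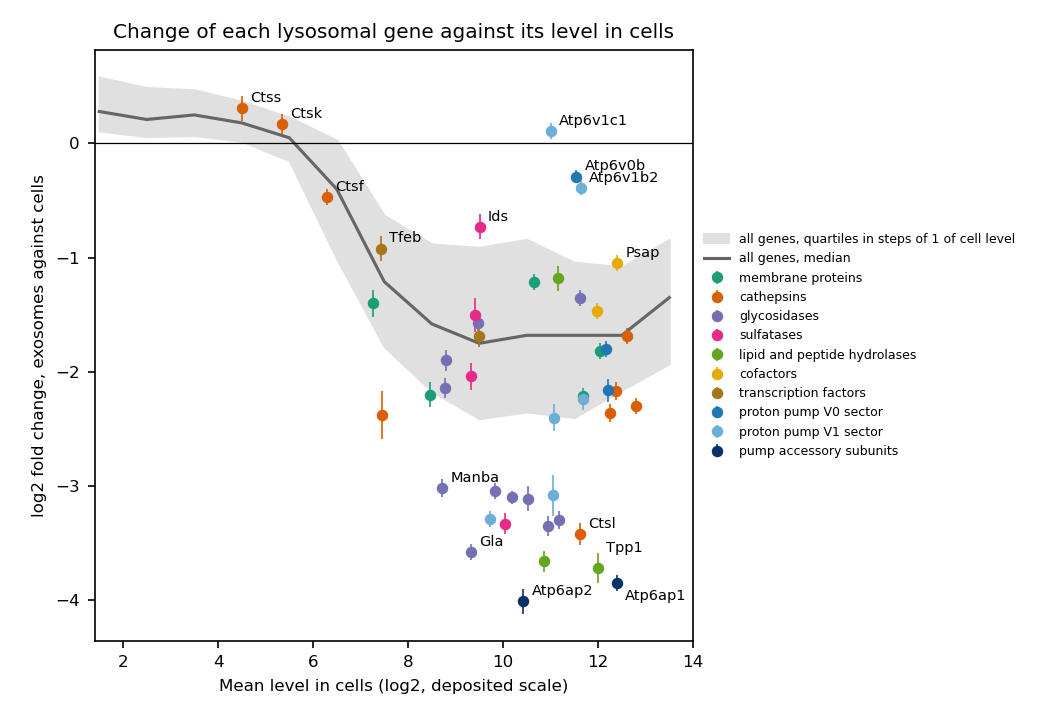
Mean log2 level in cells (x axis) against the log2 fold change of exosomes against cells (y axis) for the 47 lysosomal genes, coloured by role, with the SE as bars. The line and band give the median and quartiles of all 14860 genes in steps of 1 of the cell level, and Atp6ap1, Atp6ap2, Tpp1 and Gla lie far below the band while Atp6v1c1, Atp6v0b and Atp6v1b2 lie above it.

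These genes were chosen by name and not by promoter sequence, but the motif searched for was already known from lysosomal genes. A minority of the promoters held it, and the shares below are descriptions with no test. The motif TCACGTG, the core of the site bound by TFEB and its relatives, was searched on both strands in RefSeq promoter windows (build GRCm38.p6) that run from 250 bases before to 50 bases after a transcription start. Windows were found for 42 of the 47 genes, and 14 of the 42, or 33.3%, held the motif. So did 4.29% of 27018 RefSeq genes with a window, not limited to the array, and 7.30% of 7493 genes above background in cells with a window. The other promoter shares of all genes and of genes above background in cells refer to these sets. At least 2 separate sites stood in 7 of the 42 (16.7%), against 0.366% of all genes and 0.867% of those above background in cells. The shorter CACGTG, which every TCACGTG contains, was in 16 of 42 (38.1%, against 8.09% of all genes and 12.3% of those above background in cells), and TCATGTG, the M-box that MITF binds in pigment genes, in 7 of 42 (16.7%, against 4.31% and 2.71%). The 4 promoters printed here, from 125 bases before to 25 bases after the start, are those of the motif's holders with the highest cell levels and show how the sites sit by the start. One site of Ctsd lies outside the printed stretch. Capitals mark TCACGTG on either strand, and where both strands match, the run reads TCACGTGA.
Ctsa, chr2:164833648-164833797, plus strand, 1 of 2 RefSeq starts: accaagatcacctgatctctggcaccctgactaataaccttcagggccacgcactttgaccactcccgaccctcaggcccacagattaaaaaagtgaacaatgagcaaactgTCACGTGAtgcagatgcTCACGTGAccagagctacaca
Ctsd, chr7:142387803-142387952, minus strand: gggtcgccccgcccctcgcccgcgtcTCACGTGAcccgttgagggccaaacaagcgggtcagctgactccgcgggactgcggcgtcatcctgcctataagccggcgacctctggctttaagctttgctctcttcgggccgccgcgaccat
Atp6v0d1, chr8:105566040-105566189, minus strand: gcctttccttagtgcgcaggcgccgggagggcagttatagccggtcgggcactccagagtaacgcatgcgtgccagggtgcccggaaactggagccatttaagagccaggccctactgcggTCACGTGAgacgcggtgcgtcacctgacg
Lamp1, chr8:13159036-13159185, plus strand: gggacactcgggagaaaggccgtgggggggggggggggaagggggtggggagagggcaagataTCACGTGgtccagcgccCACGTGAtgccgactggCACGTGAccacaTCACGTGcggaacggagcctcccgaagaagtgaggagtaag

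In Lamp1 the 4 sites began 61, 45, 28 and 15 bases before the start, counted at the first base of CACGTG. The sites of Ctsa began 12 bases before and at base 6 after the start, that of Atp6v0d1 began 3 bases before it, and those of Ctsd 245 and 98 bases before it. By role, the motif was in the windows of Lamp1, Mcoln1 and Cln3 among membrane proteins, Ctsa and Ctsd among cathepsins, Gaa, Gla, Glb1 and Naglu among glycosidases, Arsa and Sgsh among sulfatases, and Atp6v0b, Atp6v0d1 and Atp6v1a in the pump. Neither Atp6ap1 nor Atp6ap2 held it. The motif did not separate large from small falls: holders had a median log2 fold change of -2.20 and ranged from a fitted -3.58 (Gla) to -0.29 (Atp6v0b), and the other 28 genes had a median of -2.02. A match is a run of letters in a window, not a measured binding site.

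**Figure D3:**
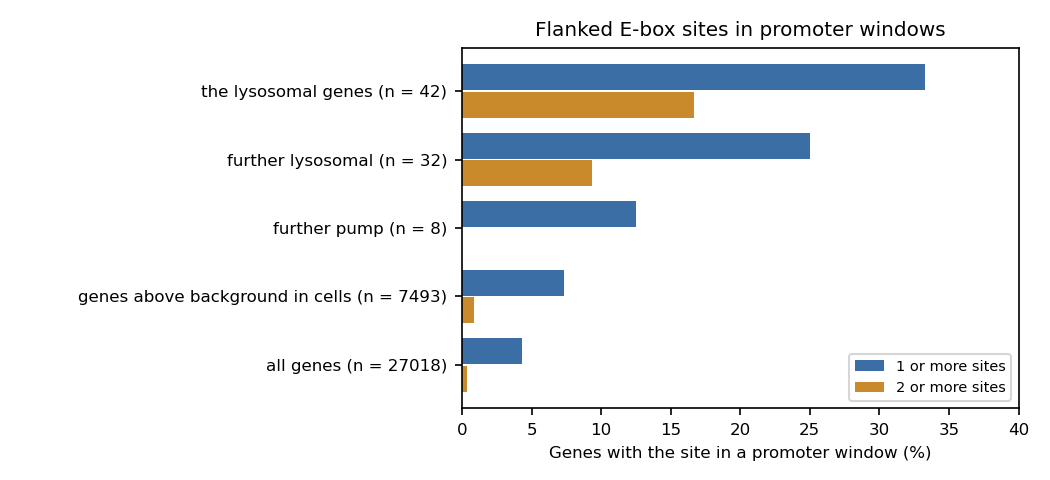
Share of genes in percent (x axis) whose RefSeq promoter window held at least 1 (blue) or at least 2 (ochre) flanked E-box sites, for 5 sets of genes with the number of genes in brackets. The lysosomal genes reach 33.3% and 16.7%, the further lysosomal genes 25.0% and 9.38%, and all genes 4.29% and 0.366%.

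The mRNAs of all 5 proteins of the lysosomal membrane fell as deposited. Lamp1 and Lamp2 are the heavily glycosylated proteins that line the inside of the membrane. Lamp2 measured 11.70, 11.70, 11.62 and 11.69 on the 4 cell arrays and 9.47, 9.40, 9.55 and 9.46 on the exosome arrays. The groups lay far apart, and the log2 fold change was -2.21 ± 0.07 (limma adjusted p = 3.92e-08). Lamp1, whose promoter is printed above, measured 12.10, 12.03, 12.05 and 11.99 in cells and 10.14, 10.14, 10.30 and 10.30 in exosomes, a log2 fold change of -1.82 ± 0.07. Mcoln1 is a cation channel that releases calcium from lysosomes. Its levels were 10.69, 10.62, 10.71 and 10.61 in cells and 9.39, 9.39, 9.43 and 9.55 in exosomes, and its log2 fold change of -1.21 ± 0.07 became 0.03 after cyclic loess, where it was not called. Scarb2, the receptor that carries glucocerebrosidase to lysosomes, was at least 3.91-fold lower, and Cln3, a membrane protein mutated in a childhood neurodegenerative disease, at least 1.70-fold lower. These are bounds of the cell mean against the exosome threshold as deposited, because neither gene was above background on any exosome array. After cyclic loess the fitted log2 fold changes were smaller, at -0.88 for Scarb2 and -0.54 for Cln3.

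Cathepsins, the proteases of the lysosome, fell for 7 of 9 members as deposited, and all of these but Ctsf fell under each scaling. Ctsl, a cysteine protease, had the most negative change, with 11.64, 11.65, 11.54 and 11.65 in cells and 8.15, 8.03, 8.44 and 8.19 in exosomes. All exosome values lay more than 3 below all cell values, for a log2 fold change of -3.42 ± 0.10 (limma adjusted p = 3.5e-08). Ctsa, a carboxypeptidase that also protects β-galactosidase and the sialidase Neu1, measured 12.83, 12.78, 12.80 and 12.77 in cells and 10.39, 10.53, 10.56 and 10.52 in exosomes (-2.30 ± 0.07). Ctsd, an aspartic protease, measured 12.61, 12.55, 12.61 and 12.62 in cells and 10.81, 10.89, 10.96 and 10.95 in exosomes (-1.69 ± 0.07). Ctsz, a carboxypeptidase, measured 12.30, 12.35, 12.38 and 12.48 in cells and 10.23, 10.30, 10.05 and 10.26 in exosomes (-2.17 ± 0.08). In each of these genes every exosome value lay far below every cell value. Ctsb, a cysteine protease, fell as well (-2.36 ± 0.08), and Ctsh, an aminopeptidase below the threshold on all exosome arrays, was at least 1.96-fold lower.

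The other cathepsins were dim. Ctsf, a cysteine protease, was above background in cells only, and its log2 fold change of -0.47 ± 0.07 was -0.07 after quantile normalization and 0.00 after cyclic loess, with no call in either. Its cell mean of 6.29 lay below the exosome threshold, so no fold is given. Ctsk, the collagen-degrading protease of osteoclasts, measured 5.31, 5.40, 5.27 and 5.38 in cells and 5.50, 5.70, 5.54 and 5.32 in exosomes. The groups overlapped, no array was above background, and the log2 fold change of 0.17 ± 0.09 (adjusted p = 0.137) was -0.42 after centring on background genes. It was called higher by limma after quantile normalization (0.29, adjusted p = 0.0391) and cyclic loess (0.23, adjusted p = 0.0457). Ctss, the protease of antigen-presenting cells, measured 4.54, 4.49, 4.40 and 4.58 in cells and 4.97, 4.97, 4.73 and 4.59 in exosomes, again below background on every array. Ctss was the 1 gene called higher (0.31 ± 0.11, limma adjusted p = 0.0309), and the background genes themselves had a higher median in exosomes (4.21 ± 0.08 against 3.61 ± 0.05, SD); after centring on them it was -0.28. The call for Ctss was lost without cell array 1, 2 or 3 or exosome array 1 or 2 (0.26 to 0.33), and Ctsk was called higher without exosome array 4 (0.24, limma adjusted p = 0.0396).

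The glycosidases, which take sugars off glycoproteins, glycolipids and glycosaminoglycans, fell for 11 of 11 members as deposited, and all but Gusb fell under each scaling. Their median log2 fold change was -3.04 as fitted and -2.83 with Gla and Manba at their bounds. Gla is the α-galactosidase that is deficient in Fabry disease. It measured 9.28, 9.33, 9.29 and 9.38 in cells and 5.62, 5.79, 5.85 and 5.72 in exosomes, a fitted log2 fold change of -3.58 ± 0.07 (limma adjusted p = 2.65e-08). No exosome array was above background for Gla, so it is given as at least 7.11-fold lower as deposited. Its fitted log2 fold change was -2.77 after quantile normalization and -2.19 after cyclic loess, both smaller falls than this bound. Manba, the β-mannosidase, was at least 4.68-fold lower as deposited, also as a bound, with -2.19 and -1.75 under those scalings. Naglu, an enzyme of heparan sulfate breakdown, fell 10.2-fold, Gaa, which digests glycogen, 9.86-fold, Man2b1, an α-mannosidase, 8.64-fold, Glb1, a β-galactosidase, 8.59-fold, and Neu1, a sialidase, 8.20-fold. These 5 stayed above background on all exosome arrays. Galc, which cleaves galactosylceramide, fell 4.40-fold and was above background on 3 of 4 exosome arrays, and Idua, an enzyme of heparan and dermatan sulfate breakdown, fell 3.73-fold. Gusb, the β-glucuronidase, was 2.96-fold lower as deposited, but its log2 fold change of -1.57 shrank to -0.12 after cyclic loess (adjusted p = 0.114). Hexa, a subunit of β-hexosaminidase, changed least as deposited, though not after quantile normalization (-0.60 beside -0.27 for Gusb) or cyclic loess (-0.30 beside -0.12), with 11.63, 11.54, 11.67 and 11.66 in cells and 10.19, 10.29, 10.24 and 10.37 in exosomes (-1.35 ± 0.07). Even there, the highest exosome value was more than 1 below the lowest cell value.

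Sulfatases and related enzymes, which remove sulfate groups from lipids and glycosaminoglycans, fell for 4 of 4 members as deposited but over a wide range. Arsa, which degrades sulfatide of myelin, measured 10.19, 10.06, 9.94 and 10.00 in cells and 6.74, 6.88, 6.59 and 6.66 in exosomes, a log2 fold change of -3.33 ± 0.09 (limma adjusted p = 3.32e-08). Ids, which acts on heparan and dermatan sulfate, measured 9.61, 9.38, 9.64 and 9.42 in cells and 8.50, 8.90, 8.89 and 8.85 in exosomes. The groups did not overlap, and the log2 fold change of -0.73 ± 0.11 turned to 0.46 after quantile normalization and 0.67 after cyclic loess, both called higher. Sgsh, which acts on heparan sulfate, fell 4.11-fold. Arsb, which acts on dermatan and chondroitin sulfate, was 2.82-fold lower (-1.50 ± 0.15) and was not called after quantile normalization (-0.20) or cyclic loess (-0.05). A second transcript cluster of Arsb had a log2 fold change of -2.04 ± 0.12.

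Tpp1 and Ppt1, enzymes whose loss causes neuronal storage disease in children, were among the largest falls. Tpp1, a tripeptidyl peptidase, measured 12.14, 11.97, 11.98 and 11.89 in cells and 8.15, 7.98, 8.52 and 8.43 in exosomes, a log2 fold change of -3.72 ± 0.13 (limma adjusted p = 6.08e-08). Ppt1, which removes palmitate from proteins, fell 12.6-fold (-3.66 ± 0.09). A second cluster of Ppt1 was not above background on any array and was not called (-0.32 ± 0.13, adjusted p = 0.058). Lipa, the acid lipase that frees cholesterol from its esters, changed less. It measured 11.16, 11.14, 11.11 and 11.19 in cells and 9.85, 9.72, 10.18 and 10.12 in exosomes, and its log2 fold change of -1.18 ± 0.11 was -0.04 and not called after cyclic loess.

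Both secreted cofactors fell, with a median log2 fold change of -1.26 as deposited, beside -2.30 for the hydrolases. Psap is the precursor of the saposins, which present lipids to hydrolases, and Grn encodes progranulin, which binds it. Psap measured 12.35, 12.39, 12.33 and 12.52 in cells and 11.28, 11.34, 11.39 and 11.38 in exosomes (-1.05 ± 0.07, limma adjusted p = 1.99e-06). Grn measured 12.05, 11.93, 11.94 and 11.94 in cells and 10.42, 10.45, 10.56 and 10.55 in exosomes (-1.47 ± 0.07). Across all 8 arrays neither gene came near background.

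**Figure D4:**
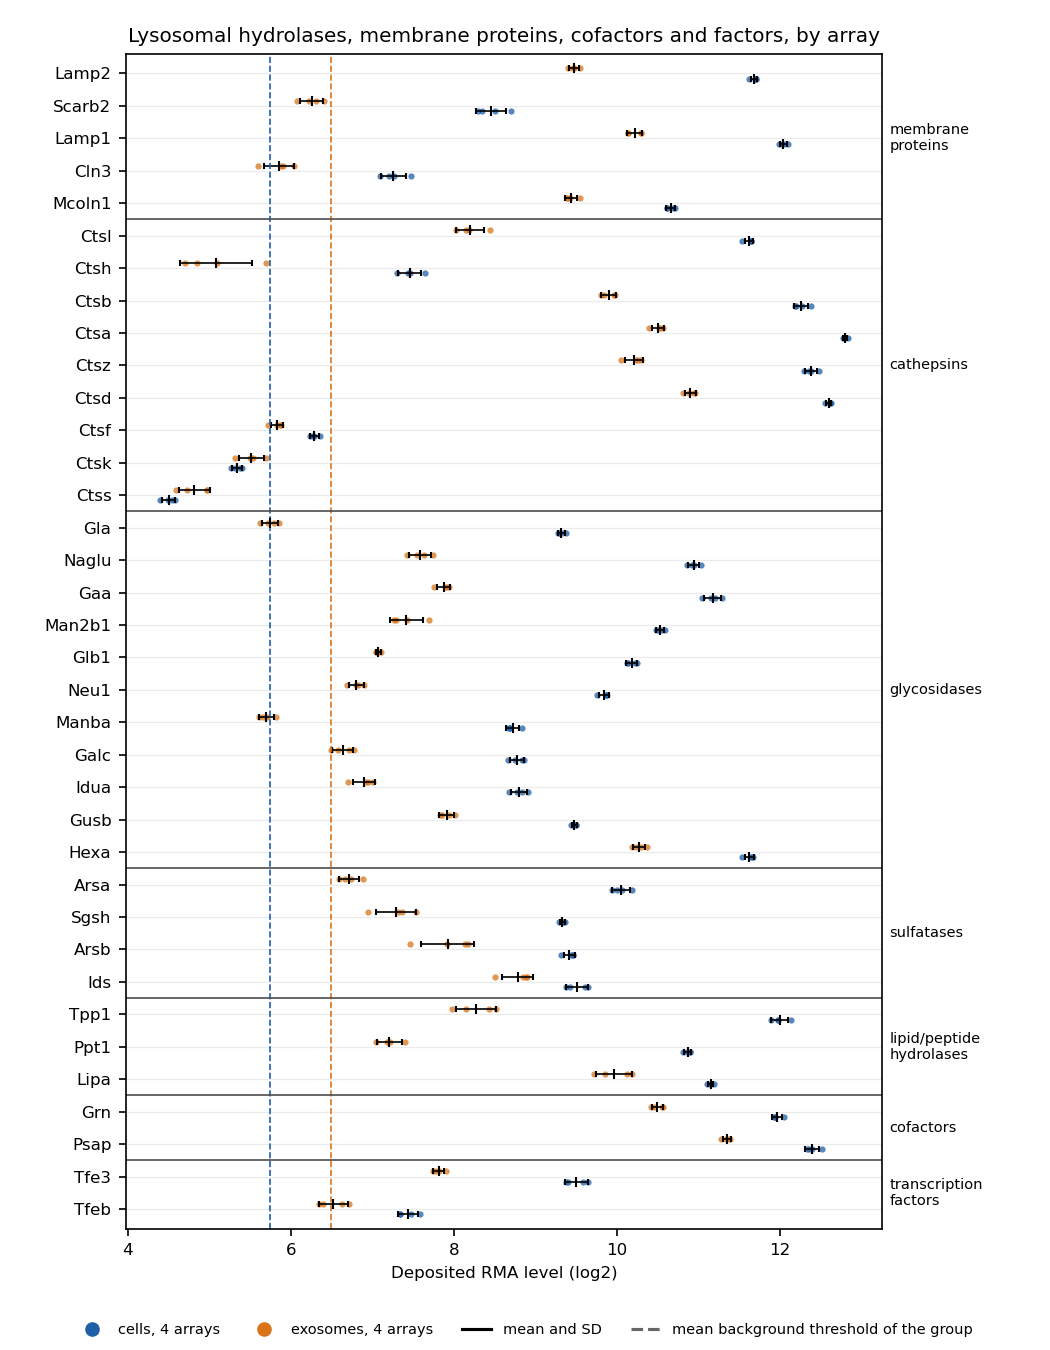
Deposited log2 levels (x axis) of the 36 lysosomal genes outside the proton pump (y axis, grouped by role), with 1 point per array, the mean and SD of each group in black and dashed lines at the mean background threshold of each group. Cell and exosome points are apart for every gene but Ctsk, where they overlap, and Ctss, where they nearly touch (4.58 and 4.59). Gla, Manba, Scarb2, Cln3, Ctsh, Ctsf, Ctsk and Ctss lie left of the exosome threshold in exosomes.

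The mRNAs of the proton pump subunits did not change alike. Of 11 measured 10 fell as deposited, with log2 fold changes from -4.01 to 0.11. The assembled pump holds a fixed number of copies of each protein, but protein was not measured here. Both accessory subunits, which help assemble the pump, had the most negative fitted changes. Atp6ap2, also known as the prorenin receptor, measured 10.36, 10.37, 10.36 and 10.61 in cells and 6.31, 6.27, 6.47 and 6.63 in exosomes (-4.01 ± 0.11, limma adjusted p = 3.12e-08). Only 1 of its 4 exosome arrays was above background. Atp6ap1 measured 12.43, 12.36, 12.44 and 12.35 in cells and 8.42, 8.58, 8.57 and 8.62 in exosomes (-3.85 ± 0.07), and stayed above background.

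In the V0 sector, Atp6v0a1, whose subunit forms the path for protons, and Atp6v0d1, which joins the membrane ring to the V1 sector, fell. Atp6v0d1 measured 12.28, 12.23, 12.31 and 12.07 in cells and 9.84, 10.09, 10.14 and 10.20 in exosomes, a log2 fold change of -2.16 ± 0.10 (limma adjusted p = 2.16e-07). The log2 fold change of Atp6v0a1 was -1.80 ± 0.07. Atp6v0b, a subunit of the membrane ring that carries protons, differed little between the groups. It measured 11.53, 11.49, 11.52 and 11.61 in cells and 11.27, 11.22, 11.28 and 11.21 in exosomes. Every exosome value lay below every cell value as deposited (-0.29 ± 0.06, adjusted p = 0.00362), but the direction turned after quantile normalization (0.43) and cyclic loess (0.65), where it was called higher.

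In the V1 sector, 5 of 6 members fell as deposited. Atp6v1h, a regulatory subunit, measured 9.69, 9.72, 9.66 and 9.82 in cells and 6.33, 6.44, 6.47 and 6.50 in exosomes (-3.29 ± 0.07, limma adjusted p = 2.65e-08), with 1 of 4 exosome arrays above background. Atp6v1d, of the rotating shaft, fell 8.47-fold and Atp6v1e1, of the outer stalk, 5.28-fold. The 2 subunits that form the ATP-splitting head differed from each other: Atp6v1a fell 4.71-fold (-2.24 ± 0.09), whereas Atp6v1b2 had a log2 fold change of -0.39 ± 0.06 that turned to 0.31 after quantile normalization and 0.54 after cyclic loess, both called higher. Atp6v1b2 measured 11.65, 11.59, 11.65 and 11.66 in cells and 11.18, 11.24, 11.27 and 11.31 in exosomes. Atp6v1c1, which holds the V1 sector to the membrane sector, measured 10.94, 11.04, 11.08 and 10.98 in cells and 11.03, 11.06, 11.19 and 11.19 in exosomes. These values overlapped and were not called as deposited (0.11 ± 0.07, adjusted p = 0.236). Atp6v1c1 was called higher after quantile normalization (0.86) and cyclic loess (1.13) and lower after centring on background genes (-0.48).

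Differences between genes on the same array do not move when a whole array is shifted. Pairs were picked after their values were seen, so these are descriptions with no test, and since each transcript cluster has its own brightness only the change of a difference is read. Atp6v1c1 minus Atp6ap2 was 0.37 to 0.72 on cell arrays and 4.56 to 4.79 on exosome arrays, a change of 4.12 on the log2 scale. Atp6ap2 was above background on 1 of 4 exosome arrays, so this change rests on values at the threshold. For Atp6v1b2 minus Atp6v1a, the pair of the ATP-splitting head, the difference was -0.13 to 0.11 in cells and 1.73 to 1.87 in exosomes, a change of 1.85. For Atp6v0b minus Atp6ap1 it went from between -0.92 and -0.74 to between 2.59 and 2.86. Outside the pump, Psap minus Tpp1 changed by 2.68 and Ctsd minus Ctsl by 1.72.

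**Figure D5:**
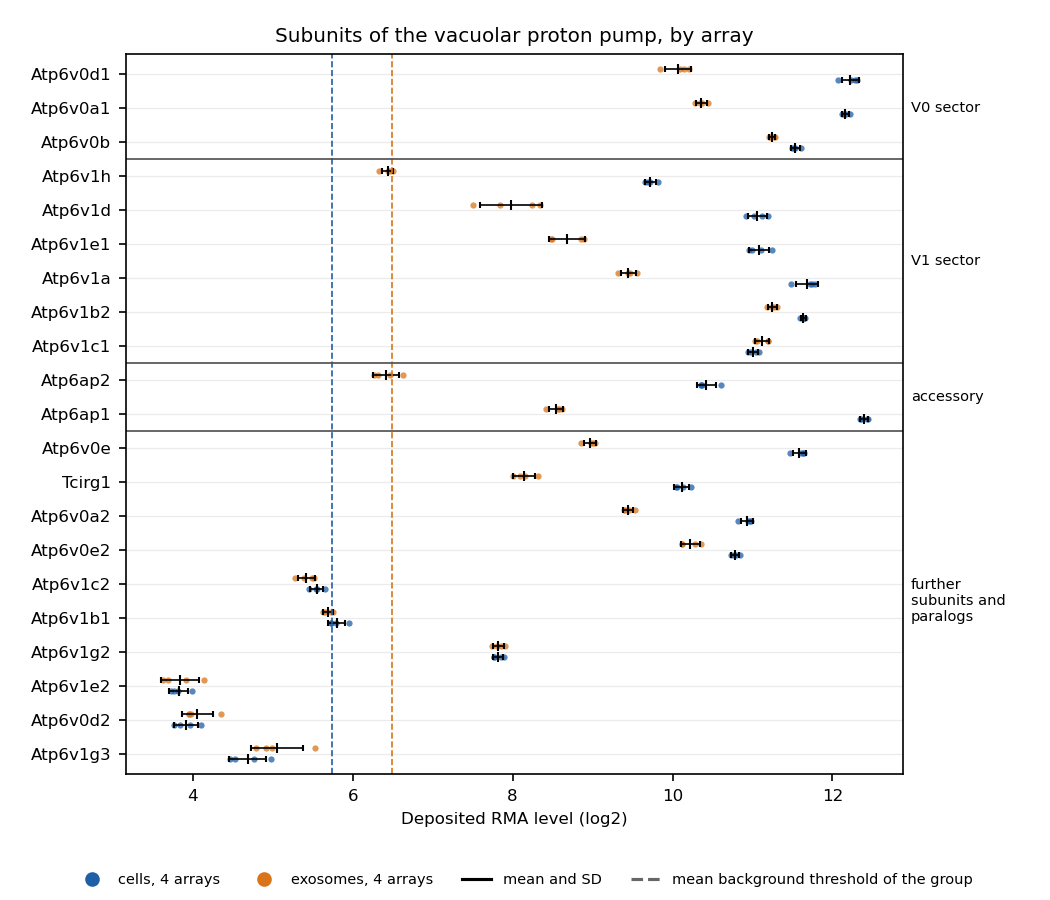
Deposited log2 levels (x axis) of 11 proton pump genes of the list and 10 further subunits and paralogs (y axis), with 1 point per array, the mean and SD of each group in black and dashed lines at the mean background threshold of each group. Points of the groups lie close together for Atp6v0b, Atp6v1b2, Atp6v1c1 and Atp6v1g2 and far apart for Atp6ap1 and Atp6ap2.

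Further pump genes, mostly paralogs of the subunits above, had fitted log2 fold changes from -2.62 to 0.37 with a median of -0.12. Of 10 measured, 4 fell as deposited and 6 were not called, beside 52.1% of all genes that fell, and 5 were not above background in either group. Atp6v0e, a small V0 subunit, fell by 6.15-fold (-2.62 ± 0.07). Tcirg1 and Atp6v0a2, which encode other forms of the proton path subunit, fell 3.92-fold and 2.80-fold. Atp6v0e2, a paralog of Atp6v0e, was 1.48-fold lower as deposited (-0.56 ± 0.08) but higher after quantile normalization (0.27) and cyclic loess (0.59). Atp6v1g2, a stalk subunit known mainly from neurons, was above background on all 8 arrays. Its levels were 7.77, 7.77, 7.85 and 7.89 in cells and 7.80, 7.74, 7.90 and 7.85 in exosomes, which overlapped (0.01 ± 0.07, adjusted p = 0.953). The value for Atp6v1g2 was 1.30 with quantile normalization, 1.45 with cyclic loess and -0.59 with arrays centred on background genes. Atp6v0d2, Atp6v1b1, Atp6v1c2, Atp6v1e2 and Atp6v1g3, forms restricted to other tissues, were not called as deposited and were not above background in either group. After centring on background genes all of them but Atp6v1g3 were called lower (-0.72 to -0.45).

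Tfe3 and Tfeb, transcription factors of the lysosome, fell as deposited. Tfe3 measured 9.65, 9.40, 9.59 and 9.37 in cells and 7.78, 7.82, 7.75 and 7.90 in exosomes (-1.69 ± 0.09, limma adjusted p = 3.62e-07). Tfeb, its close relative, measured 7.59, 7.34, 7.47 and 7.34 in cells and 6.39, 6.71, 6.63 and 6.35 in exosomes, above background on 2 of 4 exosome arrays. The log2 fold change of Tfeb, -0.92 ± 0.11, turned to 0.20 after quantile normalization and 0.23 after cyclic loess, without a call. Mitf, the family member that drives pigment genes, measured 12.34, 12.35, 12.34 and 12.36 in cells and 10.88, 10.96, 10.94 and 10.98 in exosomes (-1.41 ± 0.06), with almost no spread within a group. Tfec, the last of the family, was called higher as deposited (0.47 ± 0.13, limma adjusted p = 0.0125) and after quantile normalization (0.47, adjusted p = 0.0195), but not after cyclic loess (0.35) or centring on background genes (-0.13). It was not above background on any array.

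Lysosomal genes outside the 50 were measured too. Of 48 further genes named for this purpose 40 were measured, and 38 of these fell, 1 rose and 1 was not called, beside 52.1% of all genes and 79.9% of those above background in cells that fell. Their median log2 fold change as deposited was -2.17, or -2.01 with 11 genes at their bound. A fitted fall of at least 8-fold was called as deposited for 7 of the 40, or 3 at the bounds. The fall was called under each scaling for 31 of the 40, beside 30.9% and 46.3% of the same sets of genes. Asah1, the acid ceramidase, had the most negative fitted change: it measured 11.38, 11.36, 11.44 and 11.32 in cells and 6.73, 6.59, 7.02 and 7.15 in exosomes (-4.50 ± 0.13, limma adjusted p = 3.36e-08). Ctsc, a dipeptidyl peptidase, and Cpq, a carboxypeptidase, were below the threshold on all exosome arrays. As deposited they were at least 7.88-fold and 4.53-fold lower. Tmem192, a protein of the lysosomal membrane, went the other way. It measured 9.86, 9.70, 9.93 and 9.81 in cells and 10.44, 10.57, 10.60 and 10.61 in exosomes, all 4 above the cells. The log2 fold change of Tmem192 was 0.73 ± 0.08 (limma adjusted p = 4.45e-05) in the deposited values, 1.69 with quantile normalization and 1.95 with cyclic loess, and it was 0.14 with no call when arrays were centred on background genes. Abcb9, a peptide transporter, was not called as deposited (0.03 ± 0.11) and was not above background in either group. It was called higher after cyclic loess (0.35) and lower after centring on background genes (-0.56).

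In exosomes, 35 of the 47 genes were above background on all arrays and 6 of those above background in cells were so on no exosome array. The shares among genes above background in cells were 56.5% and 30.5%. The 6 genes were Gla, Manba, Ctsh, Scarb2, Cln3 and Ctsf. Because the threshold was higher on the exosome arrays, dim genes could pass it in cells alone without any change.

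Replicates of exosomes varied slightly more than those of cells. The median SD over the 47 genes was 0.10 in exosomes and 0.07 in cells, beside 0.15 and 0.11 over all genes. Exosome array 1 was the lowest of its group for 24 of the 47 genes, or 51.1%, and for 45.0% of the genes above background in cells. The largest spread was that of Ctsh in exosomes, with values of 4.85, 5.09, 4.70 and 5.70, all below background. Atp6v1d followed, with 7.50, 7.84, 8.34 and 8.24 in exosomes, all above background and all below its lowest cell value of 10.92.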

How the data were processed

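RNA of 4 samples of B16F0 cells and 4 of exosomes was hybridised to Affymetrix mouse exon arrays, with 1 array for each sample. The deposited log2 values, 23332 transcript clusters by 8 arrays with a range from 0.65 to 14.1, were made by the authors with Affymetrix Expression Console and RMA on build mm8, per the submitters' processing notes, and core probesets were averaged, per the series text. Versions, settings and the way exosomes were isolated are not stated in the labels used here. Equal amounts of cDNA were labelled, per the labels' protocols, so levels are relative to the RNA on an array. Separate cultures for the samples are not stated in the labels, and the p-values may rest on technical spread alone; the number of arrays limits the precision.

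Gene names came from GEO's platform annotation (14996 clusters with 1 symbol, 1019 with several, 7317 unnamed here). All clusters were fitted with limma 3.58.1 in R 4.3.3 (lmFit, eBayes, two-sided, Benjamini-Hochberg over all clusters, calls at an adjusted p below 0.05, no filter). Where no exosome array was above background, the fold is a bound on the deposited scale, the cell mean against the mean exosome threshold. Folds are powers of 2 of differences of mean log2 values. The fit was tested on simulated data of 23332 clusters for exosomes against cells: with 50 changed clusters per size, it recovered 24% of those changed by 0.5 (log2), 74% for a change of 1, 94% for 2 and 94% for 3, and it called 11 of 23132 unchanged ones. Few clusters were changed in this simulation, whereas 42.9% fell and 16.4% rose in the data, so its rates do not give the sensitivity there. No 2 arrays were identical.

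The members and lists were chosen with earlier results of these data known. Values of all arrays are given for the genes with the most negative and most positive change in each of 10 roles, for genes called higher or not called and for the 5 brightest in cells; other genes shown in this way (Lamp1, Atp6v1b2, Atp6v1g2, Ctsh, Atp6v1d and Asah1 among them) were added after their values were seen. Of each further list the 3 largest falls and all genes not called lower were named. The planned protein sequences were not used here. Alternatives were 3 other scalings, the mean of a gene's rows, a filter on dim signals, another prior, a fit with array weights, a block for the replicate number, other definitions of background, stricter call thresholds and leaving out each array.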

Additional observations from a re-analysis of the deposited data

Results flagged for a closer look

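In 8 of 94 groups of 4 arrays, 1 array stood far from the other 3, where chance gives about 1 group in 20. The gap to the nearest other array took up most of the group's range in each, beyond the critical value of Dixon's test. In cells, Atp6ap2 was 10.61 on array 4 against 10.36 to 10.37 on the others, Grn was 12.05 on array 1 against 11.93 to 11.94, and Manba was 8.84 on array 1 against 8.66 to 8.69. On the low side in cells, Lamp2 was 11.62 on array 3 against 11.69 to 11.70, Ctsl was 11.54 on array 3 against 11.64 to 11.65, Neu1 was 9.75 on array 2 against 9.86 to 9.88, and Arsb was 9.31 on array 2 against 9.44 to 9.46. In exosomes, Ids was 8.50 on array 1 against 8.85 to 8.90. The difference of Ids between the groups was -0.73 on the log2 scale, so its gap was large beside it. None of these 8 genes changed its call when any array was left out.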

How the results depend on the processing

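The count of 44 lysosomal genes called lower stayed within 35 to 46 under every alternative run, and was 44 without any single array. With the replicate number as a block it was 44 as well, and the block changed no call but that of Ctss (adjusted p = 0.062). The numbers were not taken as pairs, because the labels do not say that a number marks a shared culture. Same-numbered arrays did not deviate together (r from -0.055 to 0.00133), which cannot show whether they shared one. The median log2 fold change of -2.16 was -1.09 with quantile normalization, -0.88 with cyclic loess, -2.75 with arrays centred on background genes, and -2.19 to -2.09 when single arrays were left out. The number above background in exosomes was 28 at the 99th percentile of background genes, 40 at the 90th, and 35 to 36 without single arrays. After quantile normalization the direction turned for Ids (0.46), Tfeb (0.20), Atp6v0b (0.43) and Atp6v1b2 (0.31). After cyclic loess it turned for Ids (0.67), Tfeb (0.23), Atp6v0b (0.65), Atp6v1b2 (0.54), Mcoln1 (0.03) and Ctsf (0.00). After centring on background genes it turned for Atp6v1c1 (-0.48), Ctsk (-0.42) and Ctss (-0.28). The cause of these turns was not tested. Of 750 values for single genes under alternatives, 718 kept direction and call, 14 lost the call, 5 gained one and 13 turned. The rise of Ctss was lost without cell array 1, 2 or 3 or exosome array 1 or 2, and Ctsk was called higher (0.24, adjusted p = 0.0396) without exosome array 4. Signal over background limits the 12 genes not above background on all exosome arrays.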
